A study of Mus musculus with 7 samples.

Results

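The 7 mammalian sirtuins and the 3 members of the PGC-1 coactivator family were examined in secondary follicle-enclosed oocytes that lack the mitochondrial fusion gene *Mfn1*. The 10 genes (*Sirt1* to *Sirt7*, *Ppargc1a*, *Ppargc1b* and *Pprc1*) were chosen by name, and all 10 had a row among the 22877 of the expression table. Oocytes came from 8-week-old C57BL/6J mice. The Mfn1-/- group carried a floxed *Mfn1* deleted by *ZP3-Cre*, a transgene active in the oocyte and not in granulosa cells, and the comparison group was WT. Whether the WT mice carried the floxed allele without Cre is not given in the sources used here. Each library was made from 5 pooled oocytes by Smart-Seq2, which amplifies poly(A) RNA as cDNA, with 3 Mfn1-/- and 4 WT libraries.

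Sirtuins are enzymes that remove acetyl and other acyl groups from lysines of proteins and consume NAD+ as they do so, which ties their activity to cellular metabolism. SIRT1, SIRT6 and SIRT7 act mainly in the nucleus, SIRT2 mainly in the cytosol, and SIRT3, SIRT4 and SIRT5 in mitochondria. The PGC-1 coactivators do not bind DNA themselves but dock on transcription factors such as NRF1, GABP, the estrogen-related receptors and the PPARs to raise the expression of nuclear genes of mitochondria, and SIRT1 is known to deacetylate PGC-1α. In the growing oocyte, mitochondria are the main site of ATP production.

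Upstream sequences are shown for the matches to motifs of PGC-1 partner factors and, whole, for *Sirt1*, the best known sirtuin, and *Ppargc1a*, the member with the lowest level. They come from RefSeq on GRCm38.p6, in which 9 of the 10 members were found. The 250 bases before the RefSeq start were searched on both strands for GCGCATGC (an NRF1 core), CCGGAAGT (an ETS site of the kind GABP binds), TCAAGGTCA (an estrogen-related receptor element), TGACGTCA (a cAMP response element), CACGTG (an E-box) and GGGCGG (a GC box). Capitals mark each match.

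Sirt6, NRF1 core, minus strand of chr10:81627690-81627719: catcaggaggGCGCATGCGCtctggaaaga
Sirt7, NRF1 core, minus strand of chr11:120625020-120625049: gggccgggcccGCGCATGCgtctctgtagc
Sirt6, ETS site, minus strand of chr10:81627584-81627613: gtcccttcaccACTTCCGGcggaagcggcc
Sirt3, ETS site, minus strand of chr7:140882377-140882406: agtgctcgctcACTTCCGGcaccgcgggcg
Sirt1, upstream window, minus strand of chr10:63339036-63339285: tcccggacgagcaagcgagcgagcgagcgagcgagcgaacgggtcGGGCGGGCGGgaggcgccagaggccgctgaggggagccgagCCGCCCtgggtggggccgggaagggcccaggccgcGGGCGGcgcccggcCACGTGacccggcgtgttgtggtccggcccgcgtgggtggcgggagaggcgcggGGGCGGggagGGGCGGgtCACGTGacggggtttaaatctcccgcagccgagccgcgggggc
Ppargc1a, upstream window, minus strand of chr5:51567726-51567975: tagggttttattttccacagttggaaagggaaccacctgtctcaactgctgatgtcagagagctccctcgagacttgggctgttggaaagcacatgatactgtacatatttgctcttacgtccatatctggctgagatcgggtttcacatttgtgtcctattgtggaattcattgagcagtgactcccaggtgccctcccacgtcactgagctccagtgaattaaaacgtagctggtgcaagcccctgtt

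Among the 9 members, *Sirt6* and *Sirt7* held the NRF1 core, as did 2.26% of all 32851 windows of this length. In *Sirt6* it matched on both strands, as 2 overlapping matches that ended 134 bases before the RefSeq start, and in *Sirt7* 17 bases before it. *Sirt6* and *Sirt3* each held 1 ETS site, as did 2.88% of all windows. The *Sirt1* window had 6 GC boxes, some of them overlapping, and 2 E-boxes at a GC content of 79.2%, against a median of 52.4% over all windows. The *Ppargc1a* window had 48.0% GC and 0 matches to the 6 motifs, and the members' windows held 0 estrogen-related receptor elements and 0 cAMP response elements, which are found in 0.387% and 1.55% of all windows. The windows of *Sirt2*, *Sirt5* and *Sirt7* held 1 GC box each. At least 1 GC box was found in 32.7% and an E-box in 6.02% of all windows. GENCODE M21 places the outermost starts of *Sirt6* and *Sirt7* 231 and 226 bases before the RefSeq starts, so the matches of both lie inside annotated transcripts. It places those of *Sirt4*, *Pprc1* and *Sirt1* 428, 11653 and 42669 bases before the RefSeq starts. The windows of these genes thus lie downstream of the outermost start.

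The expression table holds 1 value per genotype and gene, the authors' mean of normalized counts over the libraries of that genotype. Values of single libraries were not analysed here, so no spread between libraries, no depth and no test can be given for any difference below, and whether the groups overlap is unknown. The lowest mean in the table is 0.01. *Mfn1* itself (chromosome 3, 32529465 to 32579239) had a mean of 0.0577 in Mfn1-/- and 0.616 in WT oocytes. Of 16 oocyte markers, 16 were in the table and 0 lay past 2-fold, beside 7.61% of all genes. Their means summed to 5123 in Mfn1-/- and 4708 in WT oocytes, with *Ooep* at 1310 and 1120 and *Dppa3* at 812 and 816. Granulosa cell markers were low beside the oocyte markers. The 14 of 16 with a row summed to 3.34 and 3.65, 3 being higher and 11 lower in Mfn1-/- oocytes. The share higher was 21.4%, beside 56.7% of all genes, and this difference was not tested. *Inha* had 1.87 and 0.954, *Esr2* 0.929 and 1.86, and *Fshr* 0.016 and 0.0171. In both genotypes *Inha* and *Esr2* lay above *Sirt2* (0.717 and 0.723) and above the members of lower level than *Sirt2*. The 6 of 11 theca and stroma markers with a row summed to 0.223 and 0.221, with *Star* at 0.0845 and 0.105 and *Cyp11a1* at 0.0602 and 0.0471. Of 8 blood cell markers 4 had a row. *Cd68* had 7.58 in Mfn1-/- and 0.672 in WT oocytes, while *Csf1r* had 0.0316 and 0.0426, and *Lyz2* was at the lowest mean in Mfn1-/- oocytes and at 0.0203 in WT. The part of these cells in the values below was not tested, and in pooled cells fewer cells of a type and less RNA per cell cannot be told apart.

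Of the sirtuins, 3 stood out by level. In WT oocytes, *Sirt6* had a mean of 7.63 normalized counts, *Sirt7* 6.09 and *Sirt4* 5.38, and these lay at percentiles 91.3, 90.0 and 88.9 of the 22877 genes by mean over all libraries. The other 4 sirtuins lay between 0.377 and 0.723. The 3 PGC-1 coactivators were lower than any sirtuin, at 0.0972 for *Pprc1*, 0.0556 for *Ppargc1b* and 0.0114 for *Ppargc1a*. The order of the 10 genes was the same in both genotypes. The sources used here do not say whether the normalized counts were divided by transcript length. Across 9781 protein-coding genes with a mean of at least 0.1, the WT level had a Spearman correlation of -0.29 with exonic length, given here as a description across genes that share libraries. Divided by exonic length, the order kept the same places except that *Sirt4* (2.24 per kb in WT) moved ahead of *Sirt7* (1.18 per kb) and behind *Sirt6* (2.74 per kb). Without library values, it cannot be said which neighbours in this order differ beyond their spread.

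**Figure D1:**
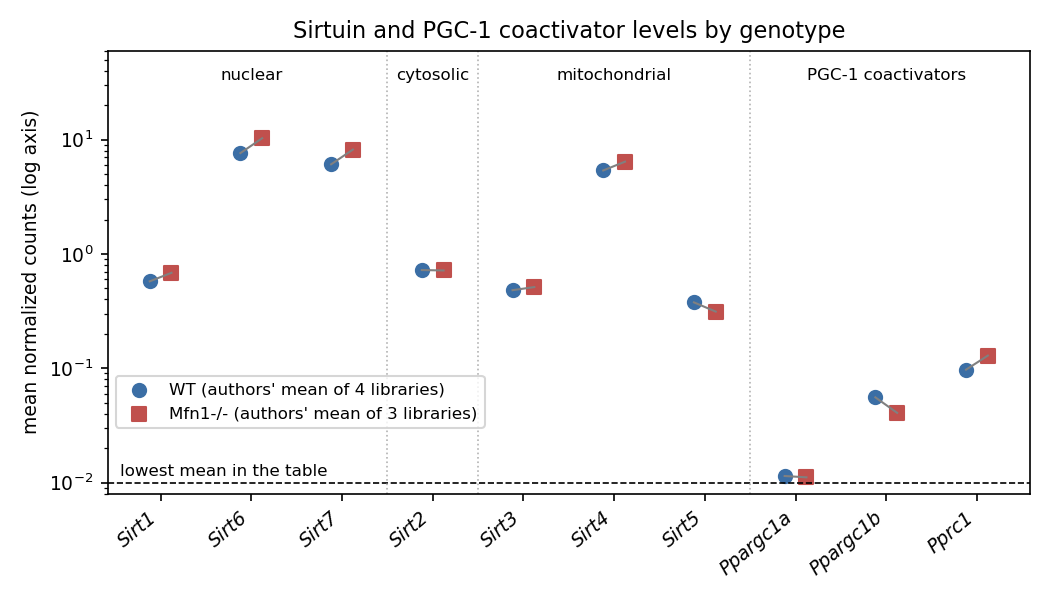
Authors' mean normalized counts (log axis) of the 7 sirtuins, grouped by the compartment in which the protein mainly acts, and of the 3 PGC-1 coactivators. Circles are WT and squares Mfn1-/- oocytes, there are no error bars because 1 mean per genotype was used, and the dashed line is the lowest mean in the table, 0.01. *Sirt6*, *Sirt7* and *Sirt4* lie between 5.38 and 10.3, the other sirtuins below 1 and *Ppargc1a* just above the lowest mean.

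The comparison of genotypes asks which genes differ when the oocyte lacks *Mfn1*. The study found secondary follicles of Mfn1-/- ovaries shifted toward those with fewer granulosa cell layers. The subtype of the follicles behind each library is not given in the sources used here. Genotype and follicle subtype therefore cannot be told apart in these means. None of the 10 genes differed 2-fold between the genotype means. On the scale log2(mean + 0.1), the log2 ratio of Mfn1-/- over WT ran from -0.21 for *Sirt5* to 0.43 for *Sirt6*, and the median was 0.14. Of the 10, 6 were higher in Mfn1-/- oocytes, beside 56.7% of all genes, and 4 lower. Past 2-fold lay 0 of the 10 members, against 7.61% of all 22877 genes (1114 higher and 628 lower) and 11.5% of the 13830 whose mean reached 0.1, a filter that 8 of the members passed. At 1.5-fold, too, 0 of the 10 members passed, against 19.3% of all genes, and so did 0 at 2-fold without a pseudocount, against 21.0%. At these background shares a count of 0 among 10 genes is not a result about the members. The 6226 genes whose mean reached 1 had a median log2 ratio of 0.16, so that expressed genes as a whole lay above 0. With this shift subtracted, all genes split into 818 higher and 916 lower past 2-fold, and the members into 5 above and 5 below. The shift describes genes whose mean reached 1, as only 3 of the members did. Genes within 2-fold of a member's level had medians from 0.00 near *Ppargc1a* to 0.18 near *Sirt6* and *Sirt7*.

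**Figure D2:**
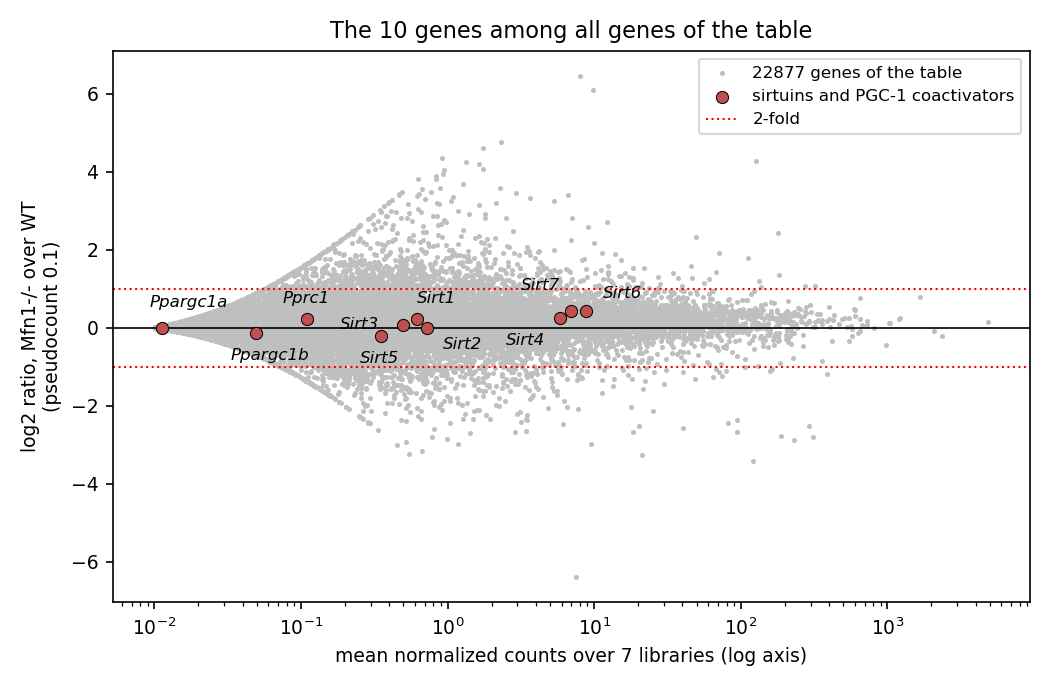
Log2 ratio of Mfn1-/- over WT (pseudocount 0.1) against the mean normalized counts over 7 libraries (log axis) for the 22877 genes in gray, with the 10 genes as red circles and 2-fold as dotted lines. The 10 genes lie between -0.21 and 0.43, inside the band of genes of like level.

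The means of all 3 nuclear sirtuins were higher in Mfn1-/- than in WT oocytes. So were 56.7% of all genes and 65.4% of those whose mean reached 1. The 3 sirtuins of highest level, *Sirt4* among them, were also all higher. *Sirt6*, whose product deacetylates histone H3 at telomeres and sites of DNA repair (chromosome 10, 81621785 to 81627797), had 10.3 in Mfn1-/- and 7.63 in WT oocytes. The ratio was 1.35 and the log2 ratio 0.43. *Sirt7*, which encodes a nucleolar deacetylase linked to rDNA transcription (chromosome 11, 120618372 to 120625240), had 8.19 and 6.09, a ratio of 1.34 and a log2 ratio of 0.42. With a pseudocount of 0.1 these were the largest absolute log2 ratios of the 10 genes, while without a pseudocount that of *Ppargc1b* (-0.45) was larger. Relative to the shift of expressed genes they came to 0.27 and 0.26. Such differences were common at these levels. Among the 1752 genes within 2-fold of the level of *Sirt6*, 33.8% had an absolute log2 ratio at least as large, and their interquartile range ran from -0.09 to 0.42. Among the 1938 genes near *Sirt7*, the share was 36.2%.

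*Sirt1*, the deacetylase of p53, FOXO factors and PGC-1α (chromosome 10, 63319005 to 63381704), was expressed at a lower level, with 0.684 in Mfn1-/- and 0.576 in WT oocytes. Its log2 ratio was 0.21, or 0.05 relative to the shift, and 67.7% of 4114 genes near its level had an absolute log2 ratio at least as large. *Sirt2*, the cytosolic tubulin deacetylase (chromosome 7, 28766735 to 28788661), was nearly the same in both genotypes, at 0.717 and 0.723, a ratio of 0.992. Of 4037 genes near the level of *Sirt2*, 98.3% had a larger or equal absolute log2 ratio.

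The mitochondrial sirtuins did not share a direction. *Sirt4*, whose product acts on glutamate dehydrogenase and malonyl-CoA decarboxylase (chromosome 5, 115478010 to 115484725), had 6.42 in Mfn1-/- and 5.38 in WT oocytes, a log2 ratio of 0.25. *Sirt3*, the main mitochondrial deacetylase (chromosome 7, 140863666 to 140882309), had 0.513 and 0.482, a log2 ratio of 0.07, which became -0.08 once the shift was subtracted. Genes near the level of *Sirt3* had a lower median than that shift, 0.09. *Sirt5*, the desuccinylase and demalonylase (chromosome 13, 43365496 to 43395203), had 0.313 and 0.377, a log2 ratio of -0.21. In WT oocytes the mean of *Sirt4* thus exceeded those of *Sirt3* and *Sirt5*, also per kb of exon, where the 3 genes had 2.24, 0.0807 and 0.0619. Absolute log2 ratios at least as large were seen in 56.1% of the genes near the level of *Sirt4*, 87.0% near *Sirt3* and 68.8% near *Sirt5*.

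Of the mitochondrial sirtuins, *Sirt3* and *Sirt5* share sequence with other genes, and the strand setting of the authors' counting is not given in the sources used here. *Sirt3* overlaps *Ric8a* on the opposite strand over 418 exonic bases and *Psmd13* over 342, and these had means of 0.756 and 1.31 in Mfn1-/- against 0.348 and 0.64 in WT oocytes. By blastn, *Sirt5* transcripts matched those of 656 other genes over 75 bases or more with identity of 95% and above, and *Sirt1* transcripts those of 35. For *Sirt2*, *Sirt4* and *Sirt6* the number was 0. *Sirt2* overlaps *Nfkbib*, which had 6.99 and 6.42, on the opposite strand over 42 exonic bases. *Sirt7* shares 124 exonic bases on the same strand with *Mafg* (1.48 and 1.01), and *Pprc1* 177 on the opposite strand with *Ldb1* (1.79 and 1.65). The part of shared reads in these values was not tested.

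The PGC-1 coactivators were at the low end of the table. *Ppargc1a*, which encodes PGC-1α, the cold- and exercise-induced member of the family (chromosome 5, 51454250 to 51567726), had 0.0111 in Mfn1-/- and 0.0114 in WT oocytes, next to the lowest mean of 0.01, so no fold is given. It lay at percentile 2.97 of all genes by level. *Ppargc1b*, which encodes PGC-1β (chromosome 18, 61298136 to 61400431), had 0.0407 and 0.0556, a log2 ratio of -0.15, or -0.45 without a pseudocount. *Pprc1*, the growth-regulated relative PRC (chromosome 19, 46044886 to 46072915), had 0.129 and 0.0972, a log2 ratio of 0.22, or 0.41 without a pseudocount. At means this close to the lowest value the log2 ratio depends strongly on the pseudocount, as the triangles in the plot of ratios at 3 pseudocounts show.

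**Figure D3:**
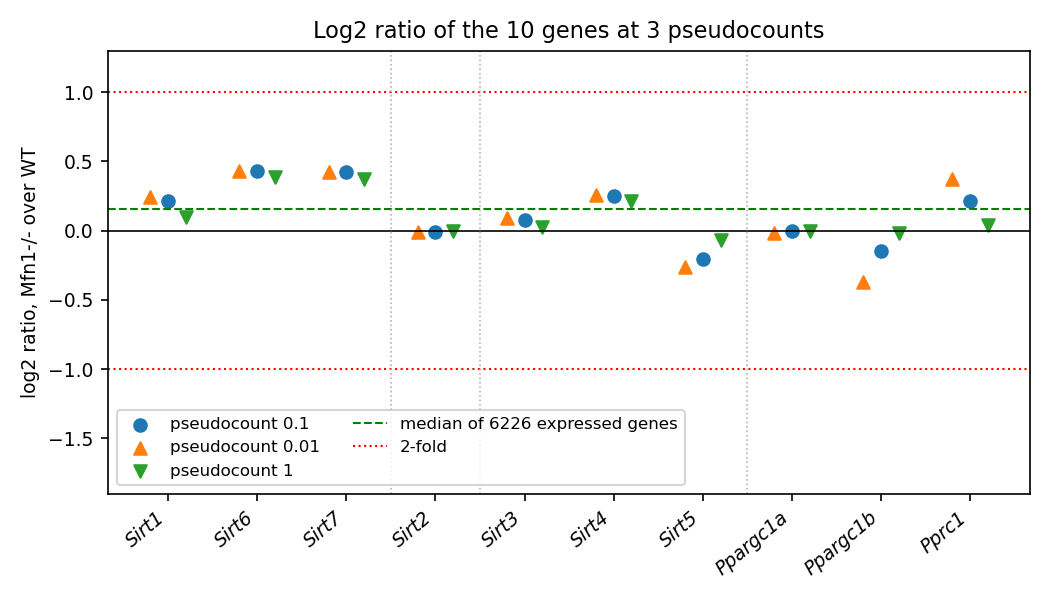
Log2 ratio of Mfn1-/- over WT for each of the 10 genes with pseudocounts of 0.01, 0.1 and 1. The green dashed line is the median of expressed genes, 0.16, and the red dotted lines are 2-fold. *Sirt6* and *Sirt7* stay between 0.37 and 0.43 at every pseudocount drawn, while *Ppargc1b* runs from -0.37 to -0.02 and *Pprc1* from 0.37 to 0.04.

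The supply of NAD+, the cosubstrate of sirtuins, held 2 genes past 2-fold, both higher in Mfn1-/- oocytes. *Slc25a51*, the carrier that brings NAD+ into mitochondria, had 6.46 and 2.74, a log2 ratio of 1.21. *Naprt*, whose product carries out the first step from nicotinic acid toward NAD+, had 2.23 and 1.06. Its log2 ratio of 1.01 came to 0.85 relative to the shift. The list had 20 genes, 16 of them in the table, so 12.5% lay past 2-fold beside the 7.61% of all genes, and the median log2 ratio was 0.13. *Nampt*, the rate-limiting enzyme of the salvage pathway, had 0.216 and 0.349, and *Nmnat1*, the nuclear adenylyltransferase that completes NAD+ synthesis, had 0.405 and 0.586. *Nmrk1* and *Nadsyn1* had 0.746 and 0.642 in Mfn1-/- against 0.415 and 0.377 in WT oocytes. These 4 genes did not reach 2-fold and were picked for their roles in the pathway after their values were seen. Of 20 other enzymes of NAD+ consumption or nicotinamide clearance, 16 were in the table, and *Nnmt*, which clears nicotinamide, was among the 4 with no row. Past 2-fold lay 0 of the 16, beside 7.61% of all genes, and their median was -0.04. *Parp2*, a DNA damage-activated polymerase, had 4.55 and 3.54, and *Parp12* had 2.97 and 4.02.

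Of 28 regulators and substrates of sirtuins in the table, 2 lay past 2-fold, both higher in Mfn1-/- oocytes, which is 7.14% and close to the background. *Acadl*, the long-chain acyl-CoA dehydrogenase that SIRT3 deacetylates, had 0.304 and 0.0747, a log2 ratio of 1.21 (0.28 with a pseudocount of 1). *Tuba1a*, an α-tubulin, had 1.18 and 0.529, a log2 ratio of 1.03 that came to 0.87, under 2-fold, relative to the shift. The median of the list was 0.14. *Ccar2*, the binding inhibitor of SIRT1, had 0.247 and 0.0898, and *Rps19bp1*, its activator, had 31.1 and 26.1. Both were named after their values were seen. *Ccar2* lay under 2-fold on the scale with a pseudocount of 0.1 (log2 ratio 0.87) and past it with a pseudocount of 0.01 or none, with a plain ratio of 2.75.

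Among 22 transcription factors listed here as partners of PGC-1 coactivators, 1 lay past 2-fold, a share of 4.55% beside 7.61% of all genes. *Esrrb*, an orphan nuclear receptor of the estrogen-related family, had 0.514 in Mfn1-/- and 1.2 in WT oocytes, a log2 ratio of -1.08. *Tfe3*, the most abundant of the list, had 1.64 and 1.89. Other factors whose motifs were searched are given here with their values already seen. *Nrf1* had 0.794 and 0.767. The GABP subunits *Gabpa*, *Gabpb1* and *Gabpb2* had 0.344, 1.3 and 0.0896 in Mfn1-/- against 0.195, 1.1 and 0.0702 in WT oocytes. The estrogen-related receptors *Esrra* and *Esrrg* were near the lowest mean, at 0.0196 and 0.012 against 0.0147 and 0.0164. Among 35 cofactors and regulators of PGC-1, *Prmt1*, the methyltransferase that activates PGC-1α, was the 1 gene past 2-fold, with 1.22 and 0.545, a log2 ratio of 1.03 that came to 0.87 relative to the shift. This is 2.86% of the list, also under the share of all genes. *Prkab1*, a subunit of the energy sensor AMPK and the most abundant of that list, had 13.1 and 9.18, a log2 ratio of 0.51. The medians of these lists were 0.09 and 0.08, beside 0.04 over all genes of the table.

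The 24 nuclear genes listed here as targets of PGC-1 coactivators and NRF1 had a median log2 ratio of 0.21, or 0.05 relative to the shift. Whether each is such a target in oocytes was not tested. The means of 16 were higher and of 8 lower in Mfn1-/- oocytes, a share of 66.7% beside 56.7% of all genes. Of the 19 whose mean reached 1, 15 were higher, 78.9% beside 65.4% of all genes at that level, and this difference was not tested. By qRT-PCR the study reports lower *Sdhb* and *Atp5a1* and higher *Cycs* in Mfn1-/- oocytes. These genes, named with their values seen, went the other way here. *Sdhb* had 7.02 and 5.93, *Atp5a1* 27.9 and 19.3, and *Cycs* 21.0 and 28.0. Why the 2 assays differ was not tested. The 1 gene past 2-fold was *Mtfp1*, which encodes a mitochondrial inner membrane protein that promotes fission, with 0.474 and 0.0761, a log2 ratio of 1.70 (0.45 with a pseudocount of 1). *Cox4i1*, a subunit of cytochrome c oxidase, had 71.4 and 62.2, a log2 ratio of 0.20. In the zinc-dependent histone deacetylases, the other deacetylase family, 0 of 9 genes lay past 2-fold, beside 7.61% of all genes. At that share, 0 of 9 is not a result about the family. The mean reached 0.1 in 6 of the 9. The median was 0.10, with *Hdac2* at 3.25 and 3.67 and *Hdac3* at 1.19 and 0.75. The difference between the sirtuins and this family was not tested.

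**Figure D4:**
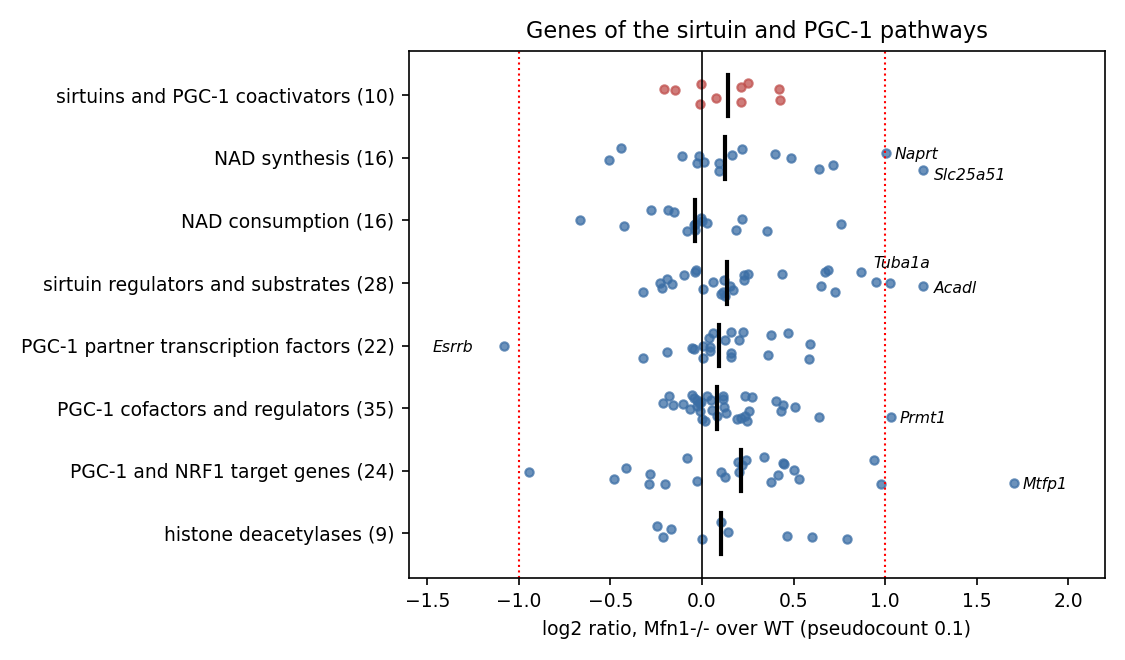
Log2 ratio of Mfn1-/- over WT (pseudocount 0.1) for the genes of each list, 1 point a gene, with the number of genes in brackets, the list's median as a black bar and 2-fold as dotted lines. The 10 members lie between -0.21 and 0.43, and 7 genes of the other lists, named in the plot, lie past 2-fold.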

How the data were processed

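After adapter trimming (Cutadapt) and quality filtering (FASTX-Toolkit), the authors mapped reads to GRCm38/mm10 with STAR, quantified genes and tested genotypes with DESeq2. Per gene, the deposited signal consists of 2 genotype means of normalized counts and 1 sum across libraries. The normalization and any scaling by length are not given in the sources used here. Weighting the Mfn1-/- mean by 3 and the WT mean by 4 gave that sum to within 1% for 100% of the genes, while the study's text gives 3 samples per genotype. The table also holds the authors' p-value, FDR, ratio and fold change, which were not used. Planned tests on single libraries could not be fitted, and 0 columns of per-sample values were left unused.

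The ratio of genotype means was computed here with a pseudocount of 0.1, and 2-fold was taken from the study's methods. Genes near a member's level were those with a mean within 2-fold of its own. The members, lists and motifs were chosen with earlier results of these data known. Genes named are the members, *Mfn1*, and up to 4 genes a list past 2-fold with a mean of at least 0.1, filled up to 2 with the most abundant genes. Others are said to be named after their values were seen, among them *Lyz2* and *Fshr*, while *Ric8a*, *Psmd13*, *Nfkbib*, *Mafg* and *Ldb1* are named for their overlap. Positions and exonic lengths are from GENCODE M21, upstream sequences from RefSeq (GRCm38.p6). Python 3.11.15, numpy 2.4.6, pandas 2.3.3, matplotlib 3.10.9 and blastn 2.17.0 were used.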

Additional observations from a re-analysis of the deposited data

How the results depend on the processing

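The count of members past 2-fold was 0 under every alternative run: pseudocounts of 0.01 and 1, minimum means of 0.1 (8 members left) and 1 (3 left), subtraction of the median of expressed genes, a 1.5-fold threshold and, chosen after seeing the data, no pseudocount. Among all genes it was 319 of 22877 with a pseudocount of 1 and 541 of 6226 at a minimum mean of 1. As at the main setting, a count of 0 is not a result about the members. *Ppargc1a*, with a WT mean of 0.0114 next to the lowest mean, could not be called lower under any of the settings run. At the main setting the same held for *Ppargc1b* and *Pprc1*, with WT means of 0.0556 and 0.0972. With a pseudocount of 1 it held for every member whose WT mean was below 1. Of the members' log2 ratios, that of *Sirt3* changed sign once the median was subtracted (-0.08), and 0 others changed sign.

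Over all 22877 genes, 1742 (7.61%) lay past 2-fold. The count was 3911 and 319 with pseudocounts of 0.01 and 1, and 541 of the 6226 left at a minimum mean of 1. It was 4416 (19.3%) at 1.5-fold and 4805 (21.0%) with no pseudocount. The counts of the lists were not tested against these shares. For NAD+ synthesis (2 of 16 genes), the count was 0 with a pseudocount of 1, 1 (*Slc25a51*) with the median subtracted and 4 at 1.5-fold. For NAD+ consumption (0 of 16 genes), it was 3 with a pseudocount of 0.01 or none and 2 at 1.5-fold. For sirtuin regulators and substrates (2 of 28 genes), it was 0 with a pseudocount of 1 and 0 of the 16 left at a minimum mean of 1. It was 1 (*Acadl*) with the median subtracted and 8 at 1.5-fold. For PGC-1 partners (1 of 22 genes), it was 0 with a pseudocount of 1 and 0 of the 3 left at a minimum mean of 1. It was 2 at 1.5-fold or with no pseudocount. For PGC-1 cofactors (1 of 35 genes), it was 0 with a pseudocount of 1 or the median subtracted, and 0 of the 5 left at a minimum mean of 1. It was 2 at 1.5-fold or with no pseudocount. For PGC-1 and NRF1 targets (1 of 24 genes), it was 0 with a pseudocount of 1 and 0 of the 19 left at a minimum mean of 1. It was 3 with a pseudocount of 0.01, 2 with the median subtracted and 4 at 1.5-fold or with no pseudocount. For histone deacetylases (0 of 9 genes), it was 1 with a pseudocount of 0.01 or none and 2 at 1.5-fold. A larger pseudocount shrinks the ratios of low genes by construction, and the minimum mean leaves fewer genes.

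No paired analysis was possible because only genotype means were used, and leaving out single libraries was not run for the same reason. The depth behind each mean is unknown, so the precision of a difference cannot be given.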
